A study of Mus musculus with 36 samples.

Results

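The insulin, Akt and mTOR genes examined here were 10 genes of the pathway that carries insulin and IGF signals to protein synthesis, namely Insr, Irs1, Irs2, Akt1, Akt2, Mtor, Rheb, Rhebl1, Ddit4 and Igf2bp2. They were chosen by name, and each was found as 1 row among the 51912 Ensembl genes of the count tables. All 10 had counts in every library and passed the filter on low counts in both muscles. RNA-seq was done on whole soleus and tibialis anterior (TA) muscle of 3-month-old male C57BL/6 mice that were WT or ∆Ig3-MuSK, which made 36 libraries, 9 for every combination of muscle and genotype. ∆Ig3-MuSK mice lack, in every cell and from the germline on, the exons that encode the third immunoglobulin-like domain of MuSK, a receptor tyrosine kinase of the postsynaptic membrane and the muscle surface in which that domain binds BMPs. The mice were homozygous for the deletion, and the 2 genotypes were compared to ask how transcription differs in a slow and a fast muscle when BMP binding by MuSK is lost. Each library held RNA from a whole muscle, so fewer cells of a type and less RNA per cell cannot be told apart.

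Insulin and IGF1 bind receptor tyrosine kinases, which phosphorylate the insulin receptor substrates. These recruit PI3-kinase, whose lipid product brings the Akt kinases to the membrane, and Akt then relieves the TSC complex's brake on the small GTPase Rheb. Rheb bound to GTP activates mTOR complex 1 at the lysosome, which raises protein synthesis and restrains autophagy, and in skeletal muscle this route is known for its control of fiber size and glucose uptake. Much of its regulation is by phosphorylation, which RNA counts do not show.

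By edgeR, differences among the 10 genes passed the test between the 2 muscles and not between the genotypes. In WT mice 8 of the 10 differed between soleus and TA at an adjusted p below 0.05 and a fold change of at least 1.2, the rule for a call here, against 57.5% of all 20841 genes tested. In the soleus 5 were higher, namely Insr, Irs2, Akt1, Mtor and Igf2bp2, against 30.2% of all genes, and 3 were lower, namely Irs1, Akt2 and Rhebl1, against 27.3%. Between genotypes the same test, edgeR's quasi-likelihood test with Benjamini-Hochberg adjustment, called 0 of the 10 in the soleus, where it called 0.952% of all genes, and 0 of the 10 in the TA, where it called 0.0149%. In the soleus Irs1, Irs2 and Igf2bp2 had lower and Rhebl1 had higher means in ∆Ig3-MuSK, at unadjusted p-values below 0.05, and in the TA Insr, Irs2, Mtor and Rhebl1 had higher means on the same terms. Those were 4 of 10 genes in each muscle, beside 18.5% of all genes in the soleus (8.48% higher and 10.1% lower) and 24.1% in the TA (12.2% higher). The study had already named the same 4 soleus genes as dysregulated or as trends in these libraries. The soleus count is therefore not independent of how the 10 were chosen. DESeq2 called 1 of the 10 in each muscle, Igf2bp2 in the soleus, where it called 2.50% of all genes, and Rhebl1 in the TA, where it called 1.12%.

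Total counts ran from 43492062 to 78660422 per library and were higher in the ∆Ig3-MuSK soleus, with a median of 51110940, than in the WT soleus, with a median of 45371395. Values are given as CPM, that is, counts divided by library size, scaled by TMM factors over all 36 libraries. The muscles matched their labels, since all 6 slow fiber genes were called higher in the soleus and 5 of 6 fast fiber genes lower. Musk itself, whose remaining exons are still counted, had a log2 fold change of -0.44 (SE 0.13, adjusted p = 0.0978) between genotypes in the soleus and -0.46 (SE 0.12, adjusted p = 0.135) in the TA. Its row sums over exons inside and outside the deleted part, so it is a weak check of the genotype. In the TA the balance of long and short transcripts was measured as an index. It was the mean log2 CPM of 4612 genes with over 6000 bases of merged exons minus that of 6242 genes with fewer. The limit for the latter was 2000 bases. This index was lowest in 3 libraries, at 1.53 in WT TA replicate 5, 1.61 in WT TA replicate 3 and 1.76 in ∆Ig3-MuSK TA replicate 3. The next TA libraries stood at 1.81 and 1.89, so no clear gap set off the third. The genotype and muscle differences of the 10 genes are also given without the 3 lowest. This cut was chosen after seeing the data, while the other lists were fitted with all TA libraries.

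**Figure D1:**
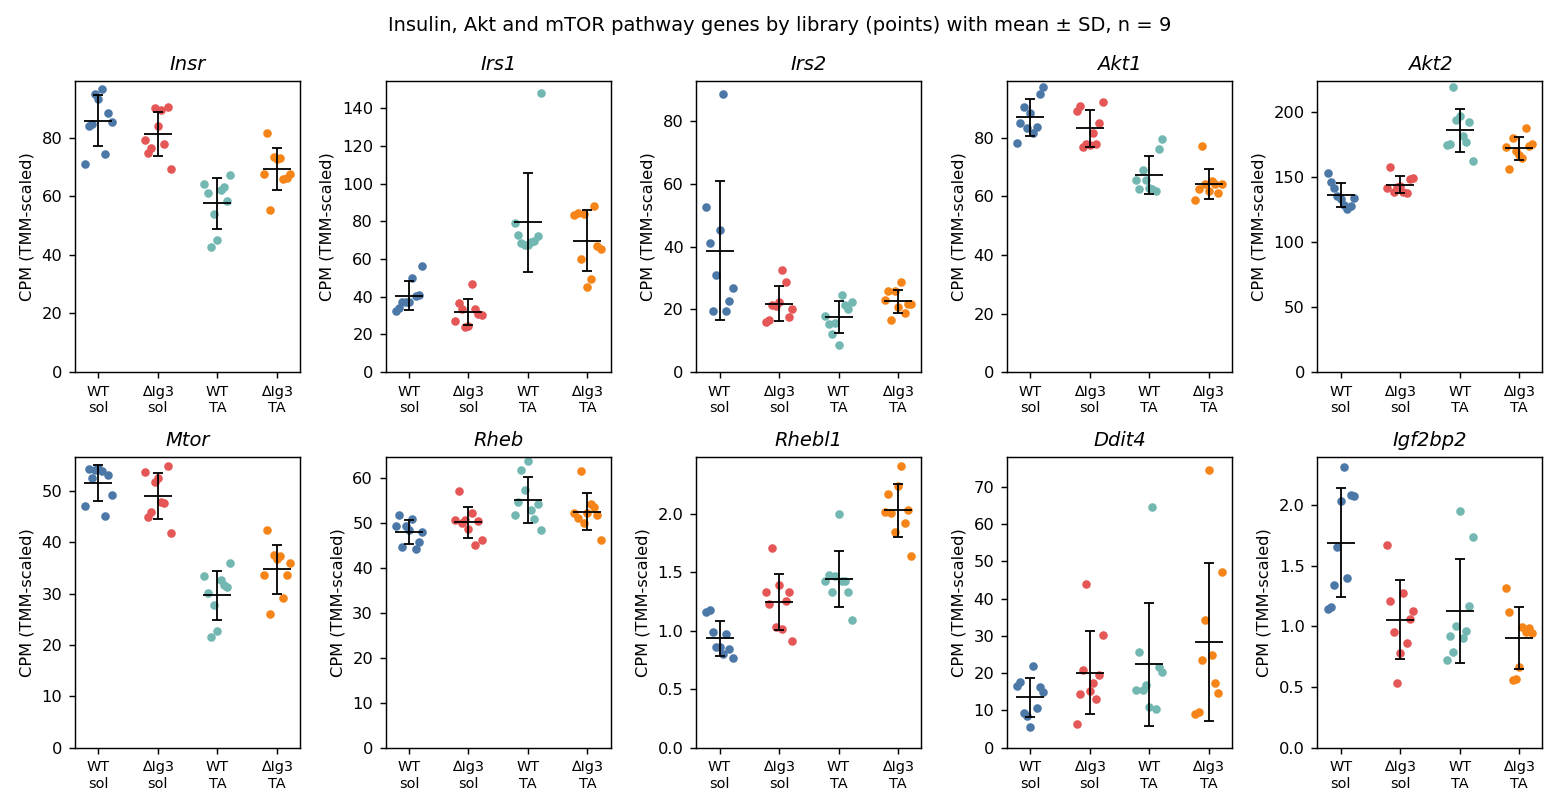
CPM (TMM-scaled, linear axes from 0) of each of the 10 genes in each library, with 9 points per group and bars for the mean ± SD. The soleus and TA groups stand apart for Insr, Irs1, Akt2 and Mtor in WT mice, while WT and ∆Ig3-MuSK points of 1 muscle overlap for every gene.

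Per kilobase of merged exon, Akt1 and Akt2 were the most abundant of the 10 genes in the soleus and Igf2bp2 the least abundant in all 4 groups. In the WT soleus Akt1 stood at 21.2 ± 1.55 and Akt2 at 19.1 ± 1.28 CPM per kilobase (mean ± SD, n = 9), which overlapped. Ddit4, Insr, Rheb, Irs2, Mtor and Irs1 followed, from 7.69 down to 4.43 CPM per kilobase, with each gene's SD range overlapping that of the next. Rhebl1 at 0.309 and Igf2bp2 at 0.228 CPM per kilobase came last and also overlapped. In the WT TA Akt2 led with 26.1 ± 2.34 CPM per kilobase and did not overlap Akt1 at 16.4 ± 1.58. There Irs1 at 8.68 CPM per kilobase stood above Insr at 4.19 and Irs2 at 2.78, whereas in the WT soleus Irs1 came after both. The level of Irs1 per kilobase is uncertain, since 30.9% of its merged exon bases lie under the opposite-strand gene Gm9747 and the libraries carry no strand.

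Insr encodes the insulin receptor, on GRCm38 chromosome 8 (3122061 to 3279617, minus strand), with 13746 bases of merged exons. Its CPM was 71.0 at the lowest, 85.3 at the median and 96.7 at the highest in the WT soleus, and 69.4, 79.4 and 90.7 in the ∆Ig3-MuSK soleus. The TA values were 42.8, 61.0 and 67.4 in WT and 55.4, 67.7 and 81.7 in ∆Ig3-MuSK. Every WT soleus library lay above every WT TA library, whereas 6 of the 9 ∆Ig3-MuSK TA libraries lay above the highest WT TA library. The muscle difference in WT was a log2 fold change of 0.58 (SE 0.078, adjusted p = 3.64e-08). In ∆Ig3-MuSK it was 0.23 (SE 0.078, adjusted p = 0.00906), below the fold change required for a call. The genotype difference was -0.088 (SE 0.062, adjusted p = 0.471) in the soleus and 0.27 (SE 0.087, adjusted p = 0.151) in the TA.

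Irs1 encodes the insulin receptor substrate that was the more abundant of the pair per kilobase in the TA, and it lies on chromosome 1 (82233101 to 82291416, minus strand) with 2 merged exons of 9144 bases in all. In the WT soleus its CPM was 32.5 at the lowest, 37.2 at the median and 56.1 at the highest, and in the ∆Ig3-MuSK soleus 23.9, 30.6 and 46.6. TA libraries held 67.3, 69.5 and 148 in WT and 44.9, 67.0 and 88.3 in ∆Ig3-MuSK. Of the ∆Ig3-MuSK soleus libraries 8 of 9 lay below the WT soleus mean and 5 below its lowest library. The log2 fold change between genotypes was -0.36 (SE 0.12, adjusted p = 0.123) in the soleus and -0.19 (SE 0.16, adjusted p = 0.451) in the TA. Without ∆Ig3-MuSK soleus replicate 6 it was -0.45 in the soleus (adjusted p = 0.0442 by edgeR), which is a call. This was the 1 call among 18 fits with 1 soleus library left out, which gave -0.45 to -0.29 (adjusted p up to 0.209 by edgeR). Irs1 fell by 0.97 on the log2 scale from the WT TA to the WT soleus (SE 0.15, adjusted p = 4.19e-07) and by 1.13 in ∆Ig3-MuSK (SE 0.15, adjusted p = 2.26e-08). The overlapping gene Gm9747 had 584 to 4452 counts per library beside 1245 to 11001 for Irs1, and its log2 fold change from WT TA to WT soleus was -0.89. Between genotypes Gm9747 had -0.28 (adjusted p = 0.286 by edgeR) in the soleus and -0.35 (adjusted p = 0.167) in the TA, the sign of Irs1. Without WT TA replicate 9, the library at 148 CPM, the genotype difference of Irs1 in the TA was -0.022.

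Irs2 encodes the other main substrate, which is abundant in liver and pancreatic islets as well as muscle, on chromosome 8 (10984681 to 11008458, minus strand) with 6323 bases of merged exons. Its CPM in the WT soleus was 19.6 at the lowest, 31.0 at the median and 88.8 at the highest, and in the ∆Ig3-MuSK soleus 15.8, 21.0 and 32.5. The TA levels were 8.58, 17.97 and 24.7 in WT and 16.6, 21.7 and 28.6 in ∆Ig3-MuSK. All 9 ∆Ig3-MuSK soleus libraries lay below the WT soleus mean, although 6 of them lay within the WT range, and 8 of 9 ∆Ig3-MuSK TA libraries lay above the WT TA mean. The log2 fold change between genotypes was -0.83 (SE 0.25, adjusted p = 0.0933) in the soleus and 0.36 (SE 0.16, adjusted p = 0.179) in the TA. Without WT soleus replicate 6, the library at 88.8 CPM, it was -0.58 in the soleus. The difference between these effects, the genotype by muscle interaction, was -1.18 (SE 0.31, adjusted p = 0.0978). Irs2 was higher in the soleus than in the TA in WT by a log2 fold change of 1.14 (SE 0.22, adjusted p = 2.14e-05), while in ∆Ig3-MuSK the value was -0.047 (SE 0.22, adjusted p = 0.859). The opposite-strand gene 9530052E02Rik overlaps 162 of the exon bases of Irs2. Its genotype difference had the sign of Irs2, at -0.97 (adjusted p = 0.0916 by edgeR) in the soleus and 0.37 (adjusted p = 0.290) in the TA.

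The upstream sequences of both substrates are shown because each holds the E-box CACGTG, the element that CLOCK:BMAL1 and Myc family factors bind. They are the 250 bases before the RefSeq start on GRCm38.p6, 5′ to 3′ on the gene's own minus strand, at chr1:82291440-82291689 for Irs1 and chr8:11008930-11009179 for Irs2. Capitals mark the E-box and, in Irs2, the palindrome GGCGCC, an element bound by SMAD1/5.
Irs1: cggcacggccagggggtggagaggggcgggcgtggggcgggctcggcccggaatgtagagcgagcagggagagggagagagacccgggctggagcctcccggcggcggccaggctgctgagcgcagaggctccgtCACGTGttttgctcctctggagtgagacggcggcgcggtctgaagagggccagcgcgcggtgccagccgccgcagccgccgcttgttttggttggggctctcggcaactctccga
Irs2: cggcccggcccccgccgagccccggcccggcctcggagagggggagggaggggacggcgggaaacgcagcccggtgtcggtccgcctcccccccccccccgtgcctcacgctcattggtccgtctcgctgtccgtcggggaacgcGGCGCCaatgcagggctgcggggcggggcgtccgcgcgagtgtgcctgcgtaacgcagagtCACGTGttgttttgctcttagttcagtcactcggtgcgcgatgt
The E-box lay at bases -115 to -110 in Irs1 and -44 to -39 in Irs2, counted back from the start, and GGCGCC at -105 to -100 in Irs2. RefSeq windows were at hand for 8 of the 10 genes, all but Insr and Rhebl1, and for 12 starts in all. CACGTG was found in 3 of these 12 windows, the third being that of Rheb, and in 6.02% of all 32851 windows. GGCGCC was found in 3 of the 12, in Irs2 and at 1 start each of Akt1 and Akt2, and in 9.59% of all windows. The forkhead element GTAAACA was found at 1 start of Akt1 (3.17% of all windows), and the cyclic AMP response element TGACGTCA (1.55%) and the glucocorticoid response element, a palindrome with a gap (0.00913%), in none of the 12. Both strands were searched, and each of these elements except the forkhead one reads the same on both. These matches are letters in a window and not measured binding sites.

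Akt1 encodes the widely expressed Akt kinase, on chromosome 12 (112653821 to 112674884, minus strand). It ranged from 78.3 to 97.5 CPM in the WT soleus, 76.8 to 92.4 in the ∆Ig3-MuSK soleus, 61.8 to 79.5 in the WT TA and 58.8 to 77.1 in the ∆Ig3-MuSK TA. The ranges of the muscles overlapped slightly and those of the genotypes almost fully. The muscle difference was a log2 fold change of 0.37 in both genotypes (SE 0.056 in each, adjusted p = 2.84e-07 in each). Between genotypes it was -0.076 (95% interval -0.18 to 0.026) in the soleus and -0.065 (-0.19 to 0.059) in the TA.

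Akt2 encodes the Akt kinase best known for insulin-stimulated glucose uptake, on chromosome 7 (27591552 to 27640826, plus strand). Its CPM was 125 at the lowest, 134 at the median and 153 at the highest in the WT soleus and 138, 143 and 158 in the ∆Ig3-MuSK soleus. Its TA values were 162, 182 and 219 in WT and 157, 173 and 188 in ∆Ig3-MuSK. All 9 ∆Ig3-MuSK soleus libraries lay above the WT soleus mean, by little, and 8 of 9 ∆Ig3-MuSK TA libraries lay below the WT TA mean. Akt2 was lower in the soleus in WT by a log2 fold change of -0.45 (SE 0.048, adjusted p = 1.43e-10), opposite in direction to Akt1. In ∆Ig3-MuSK it was -0.25 (SE 0.048, adjusted p = 1.51e-05), under the required fold, and it passed as a call by limma-voom with sample weights (-0.27) and with upper-quartile scaling. The genotype difference was 0.074 (adjusted p = 0.297) in the soleus and -0.11 (adjusted p = 0.210) in the TA.

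Mtor encodes the kinase of both mTOR complexes, on chromosome 4 (148448611 to 148557683, plus strand). Its CPM was 45.1 at the lowest, 53.1 at the median and 54.4 at the highest in the WT soleus and 41.8, 47.8 and 54.8 in the ∆Ig3-MuSK soleus. In the TA it was 21.6, 31.3 and 35.9 in WT and 26.1, 36.0 and 42.4 in ∆Ig3-MuSK. The soleus lay wholly above the TA in WT, whereas in ∆Ig3-MuSK the highest TA library reached past the lowest soleus library. Mtor was higher in the soleus by a log2 fold change of 0.79 in WT (SE 0.082, adjusted p = 7.94e-11) and 0.50 in ∆Ig3-MuSK (SE 0.082, adjusted p = 1.70e-06). Between genotypes it was -0.083 (adjusted p = 0.406) in the soleus and 0.23 (SE 0.10, adjusted p = 0.184) in the TA.

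Rheb, the GTPase that switches on mTOR complex 1, lies on chromosome 5 (24802823 to 24842624, minus strand) and had the narrowest relative range of the 10 genes over the 36 libraries. It ranged from 44.2 to 51.8 CPM in the WT soleus, 45.2 to 57.2 in the ∆Ig3-MuSK soleus, 48.5 to 63.8 in the WT TA and 46.3 to 61.7 in the ∆Ig3-MuSK TA. All 4 ranges overlapped. Its muscle difference in WT was -0.20 on the log2 scale (SE 0.052, adjusted p = 0.00101), under the fold required for a call. Between genotypes it was 0.051 (95% interval -0.031 to 0.13) in the soleus and -0.068 (-0.19 to 0.052) in the TA.

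Rhebl1 encodes a close relative of Rheb that can also activate mTOR complex 1, on chromosome 15 (98877778 to 98894540, minus strand). Its CPM was 0.764 at the lowest, 0.860 at the median and 1.18 at the highest in the WT soleus and 0.916, 1.25 and 1.71 in the ∆Ig3-MuSK soleus. TA values were 1.09, 1.43 and 2.00 in WT and 1.64, 2.02 and 2.41 in ∆Ig3-MuSK. In each muscle 6 of 9 ∆Ig3-MuSK libraries lay above the highest WT library, and all 9 lay above the WT median. The genotype difference was a log2 fold change of 0.40 (SE 0.12, adjusted p = 0.0969) in the soleus and 0.50 (SE 0.098, unadjusted p = 5.24e-05, adjusted p = 0.0788) in the TA. Among TA genes it ranked 12 of 20075 genes by p. DESeq2 gave the same size in the TA, 0.50 (SE 0.10), with an adjusted p of 0.00194. Over the 12 other settings tried in the TA the log2 fold change lay between 0.49 and 0.60, with an adjusted p of 0.00191 to 0.111. Without the 3 TA libraries of low index it was 0.56 (adjusted p = 0.0336 by edgeR), and with the index as a covariate 0.60 (adjusted p = 0.0591). Without WT TA replicate 5 alone it was 0.56 (adjusted p = 0.0150 by edgeR), and in the soleus it was called without WT soleus replicate 1 (adjusted p = 0.0480 by edgeR). In each muscle this was the 1 call among 18 fits with 1 library left out. Those fits gave 0.45 to 0.56 in the TA and 0.33 to 0.45 in the soleus. Their adjusted p-values by edgeR reached 0.180 in the TA and 0.171 in the soleus. Rhebl1 had 36 to 157 counts per library, and part of its 3035 merged exon bases are shared with Dhh on the same strand. Dhh, with 27 to 95 counts, had log2 fold changes of -0.19 (adjusted p = 0.545) in the soleus and -0.18 (adjusted p = 0.439) in the TA, opposite in sign to Rhebl1. Rhebl1 was lower in the soleus than in the TA in both genotypes, by -0.62 in WT (adjusted p = 8.44e-06) and -0.70 in ∆Ig3-MuSK (adjusted p = 4.54e-07) on the log2 scale.

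Ddit4, also named REDD1, encodes a stress- and glucocorticoid-induced protein that inhibits mTOR complex 1 through TSC, on chromosome 10 (59949669 to 59951834, minus strand). Of the 10 genes it had the widest relative range over the 36 libraries, with CPM from 5.58 to 21.9 in the WT soleus, 6.36 to 44.0 in the ∆Ig3-MuSK soleus, 10.3 to 64.4 in the WT TA and 9.09 to 74.6 in the ∆Ig3-MuSK TA. All 4 ranges overlapped, and the SD was 38.9% to 74.7% of the mean. The genotype difference was a log2 fold change of 0.57 in the soleus (95% interval -0.036 to 1.17, adjusted p = 0.303) and 0.34 in the TA (-0.47 to 1.15, adjusted p = 0.590). Leaving out 1 library at a time moved the TA value between 0.012, without ∆Ig3-MuSK TA replicate 5, and 0.73, without WT TA replicate 6. The muscle difference in WT was -0.73 (adjusted p = 0.0765), which is no call. It was called by limma-voom with sample weights, at -0.89 (adjusted p = 0.0341), and by edgeR without the 3 low-index TA libraries, at -0.90 (adjusted p = 0.0416).

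Igf2bp2 encodes an RNA-binding protein that binds IGF2 and other growth mRNAs, on chromosome 16 (22059009 to 22163299, minus strand). Its CPM in the WT soleus was 1.14 at the lowest, 1.65 at the median and 2.31 at the highest, and in the ∆Ig3-MuSK soleus 0.536, 1.06 and 1.67. TA levels were 0.727, 0.958 and 1.95 in WT and 0.561, 0.956 and 1.31 in ∆Ig3-MuSK. All 9 ∆Ig3-MuSK soleus libraries lay below the WT soleus mean and 6 lay below the lowest WT library. The genotype difference in the soleus was a log2 fold change of -0.69 (SE 0.19, unadjusted p = 0.00127, adjusted p = 0.0665). DESeq2 gave -0.70 (SE 0.19) with an adjusted p of 0.0146, and limma-voom with sample weights gave -0.79 with 0.0211. Over 11 other settings it lay between -0.79 and -0.68, and it was called by edgeR without WT soleus replicate 1 (adjusted p = 0.0296) and without WT soleus replicate 2. These were the 2 calls among 18 fits with 1 soleus library left out, which gave -0.81 to -0.61 (adjusted p up to 0.132 by edgeR). In the TA the genotype difference was -0.32 (SE 0.20, adjusted p = 0.316). The counts behind these values were 29 to 129 per library. Igf2bp2 was higher in the soleus than in the TA by 0.58 in WT (adjusted p = 0.00967), and in ∆Ig3-MuSK the value was 0.22 (adjusted p = 0.339), both on the log2 scale.

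**Figure D2:**
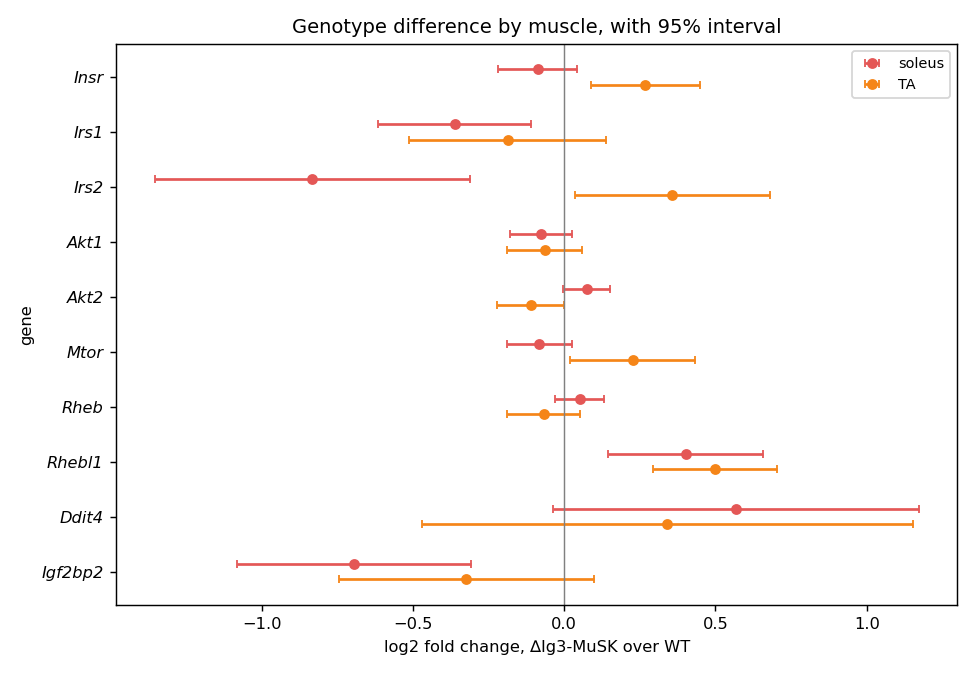
Log2 fold change of ∆Ig3-MuSK over WT for the 10 genes in the soleus and the TA, from edgeR with 95% intervals, each muscle fitted on its own 18 libraries. Rhebl1 lies right of 0 in both muscles, at 0.40 and 0.50, while Irs2 lies left of 0 in the soleus at -0.83 and right of 0 in the TA at 0.36.

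The design also asked whether the genotype difference itself changed with the muscle. The interaction was called for 0 of the 10 genes by edgeR, which called 0% of 20841 genes. At an unadjusted p below 0.05 there were 4 of the 10, namely Irs2, Insr, Akt2 and Mtor, beside 24.9% of all genes. Irs2 had the largest at -1.18 (unadjusted p = 0.000451). Insr had -0.34 (SE 0.11, adjusted p = 0.103), Akt2 0.20 (SE 0.068, adjusted p = 0.105) and Mtor -0.30 (SE 0.12, adjusted p = 0.123). DESeq2 called Irs2 (adjusted p = 0.0371) and Insr (0.0442), and limma-voom with sample weights called Insr (0.0256) and Mtor (0.0400). For Rhebl1 the interaction was -0.084 (95% interval -0.40 to 0.23), beside genotype differences of 0.40 in the soleus and 0.50 in the TA. That interval holds differences between the muscles in either direction.

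Insr, Irs2, Mtor, Akt2 and Rheb moved together with the long-minus-short index across the TA libraries. Over 18 TA libraries, with each genotype centred on its mean, the Pearson correlation with the index was 0.94 for Insr (Spearman 0.90, permutation p = 1e-05, the smallest that 100000 permutations can give), and 0.90 without the 2 most extreme libraries. It was 0.90 for Mtor (Spearman 0.86, permutation p = 1e-05) and 0.87 for Irs2 (Spearman 0.79, permutation p = 9e-05). It was -0.90 for Rheb (Spearman -0.86, permutation p = 1e-05) and -0.72 for Akt2 (Spearman -0.75, permutation p = 0.00246). These 5 of the 10 relations had an adjusted p below 0.05 over the 10, and each kept it without the 2 most extreme libraries. The share of all TA genes that move with the index was not computed, so the 5 are not shown to be particular in this. All 5 have more than 6000 bases of merged exons, and Rheb with 7721 bases and Akt2 with 7131 bases, which fell along the index, are longer than Irs2 with 6323. Irs1 with 9144 bases and Igf2bp2 with 7402 are also over 6000, and their Pearson correlations with the index were 0.36 and -0.037, at adjusted p-values of 0.249 and 0.900 by permutation. By Spearman Irs1 also passed, at 0.47 (adjusted p = 0.0475 by permutation), while Igf2bp2 had -0.11 (adjusted p = 0.747 by permutation). In the soleus the correlation was 0.60 for Insr (adjusted p = 0.0429 by permutation) and -0.66 for Akt2 (adjusted p = 0.0078 by permutation), and neither kept an adjusted p below 0.05 without the 2 most extreme libraries, whereas Akt1 reached -0.73 (adjusted p = 0.0049 by permutation) there after -0.44 with all 18.

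**Figure D3:**
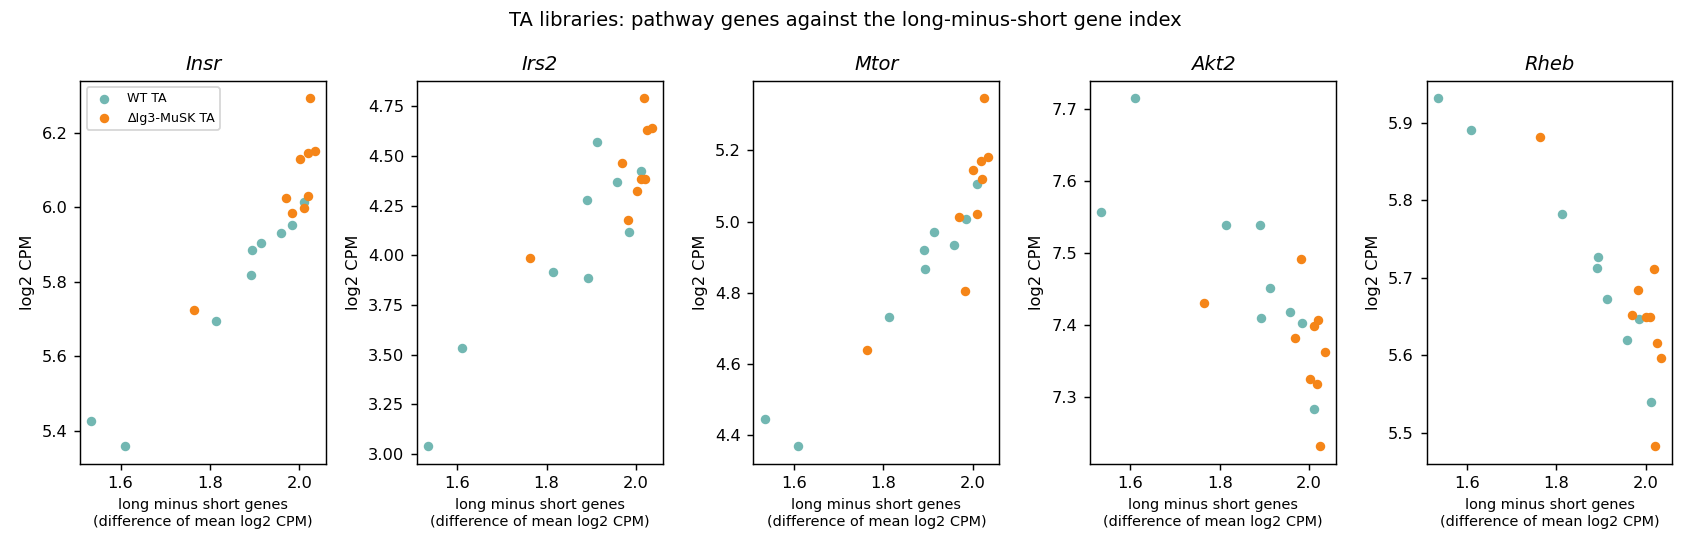
Log2 CPM of 5 genes against the long-minus-short index (difference of mean log2 CPM between long and short genes) in the 18 TA libraries, coloured by genotype. Insr, Irs2 and Mtor rise and Akt2 and Rheb fall along the index, and the 2 WT libraries at the left are replicates 5 and 3.

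The index itself was higher in the ∆Ig3-MuSK TA, at 1.98 ± 0.084 (mean ± SD, n = 9), than in the WT TA, at 1.85 ± 0.17 (n = 9), a difference of 0.14 (exact permutation test, two-sided, p = 0.0402). In the soleus it was 1.70 ± 0.094 in ∆Ig3-MuSK and 1.74 ± 0.056 in WT (n = 9 in each), with a difference of -0.039 (exact permutation test, two-sided, p = 0.296). With the index as a covariate, a fit chosen after seeing the data, the TA genotype difference of Insr went from 0.27 to 0.086, that of Irs2 from 0.36 to 0.053 and that of Mtor from 0.23 to 0.018 on the log2 scale. Without the 3 low-index libraries they were 0.21, 0.24 and 0.17. On the same terms the TA difference was -0.22 for Irs1, -0.11 for Akt1, -0.073 for Akt2, -0.043 for Rheb, 0.21 for Ddit4 and -0.18 for Igf2bp2, and of the 10 genes Rhebl1 alone was called. Without these libraries 9 of the 10 genes were called between the muscles of WT mice, the 8 above and Ddit4, against 56.1% of all genes, and 4 in ∆Ig3-MuSK, against 56.8%. The interaction was then called for 0 of the 10, with -1.07 for Irs2 (adjusted p = 0.0804) and -0.29 for Insr (adjusted p = 0.0825). The share of all genes with an unadjusted p below 0.05 in the TA went from 24.1% to 6.74% with the covariate and to 19.3% without the 3 libraries. In the soleus it went from 18.5% to 16.7% with the covariate. Since the index differed between the TA genotypes, the covariate can also take up part of a genotype difference. With the index as a covariate the interaction went from -1.18 to -0.82 for Irs2 and from -0.34 to -0.13 for Insr. The soleus differences of Irs2, Igf2bp2 and Rhebl1 hardly moved with the covariate, at -0.76, -0.76 and 0.41. Whether the index stands for RNA quality, for library preparation or for the muscles themselves was not tested.

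Among the 45 pairs of the 10 genes, 9 were correlated across the TA libraries at an adjusted p below 0.05 and 1 across the soleus libraries, in both cases with genotypes centred. In the TA Insr and Mtor had a Pearson correlation of 0.97 (Spearman 0.94, adjusted p = 0.000113 by permutation) and Insr and Akt2 one of -0.86 (Spearman -0.92, adjusted p = 0.000113 by permutation). Of the 9 pairs, 4 were positive and 5 negative, they involved Insr, Irs2, Mtor, Akt2 and Rheb alone, and 8 of them also passed by Spearman and without the 2 most extreme libraries. The share of correlated pairs among other genes was not computed. With the index regressed out 3 pairs were left, Insr with Mtor at 0.82, Insr with Akt2 at -0.78 and Akt2 with Mtor at -0.67. Insr with Mtor was also the single pair in the soleus, at 0.79 (Spearman 0.71, adjusted p = 0.009 by permutation), and it had an adjusted p of 0.072 by Spearman and 0.286 without the 2 most extreme libraries. Irs1 and Irs2 were not correlated at this threshold in either muscle.

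**Figure D4:**
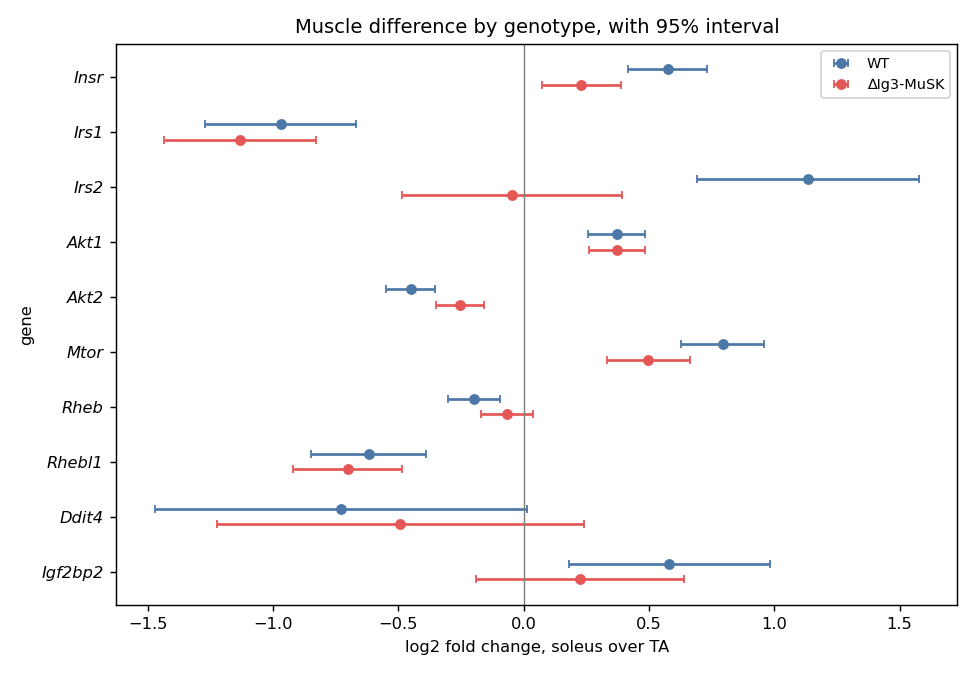
Log2 fold change of soleus over TA for the 10 genes in WT and in ∆Ig3-MuSK mice, from 1 edgeR fit over 36 libraries with 95% intervals. Akt1 is at 0.37 in both genotypes, and Irs2 is at 1.14 in WT and at -0.047 in ∆Ig3-MuSK.

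In ∆Ig3-MuSK mice 4 of the 10 genes were called between muscles, Irs1, Akt1, Mtor and Rhebl1, against 56.1% of all genes, and the adjusted p alone was below 0.05 for 6. Irs1, Akt1, Mtor and Rhebl1 were called in both genotypes and in the same direction. The CPM ranges of soleus and TA did not overlap for 4 of the 10 genes in WT, against 28.3% of all genes, and for 0 of the 10 in ∆Ig3-MuSK, against 29.4%. Between genotypes the ranges did not overlap for 0 of the 10 in the soleus, against 0.0720% of all genes, nor for any in the TA, against 0.0288%. Whether the muscles differ less in ∆Ig3-MuSK is what the interaction tests, and its values are given above.

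The other genes of the pathway were 88 genes in 7 lists, of which 85 could be tested in the soleus and in the muscle comparisons and 86 in the TA. None was called between genotypes by edgeR in either muscle. At an unadjusted p below 0.05 there were 10 higher and 7 lower in the ∆Ig3-MuSK soleus and 15 higher and 9 lower in the ∆Ig3-MuSK TA, beside the 18.5% and 24.1% of all genes given above. Their median log2 fold change was 0.032 in the soleus and 0.090 in the TA, beside -0.0017 and -0.0032 over all genes tested. Igf1r, the IGF1 receptor, had 0.076 (adjusted p = 0.609) in the soleus and 0.44 (adjusted p = 0.145) in the TA. Tsc2 of the Rheb-inhibiting complex had 0.034 and 0.21, and Rptor of mTOR complex 1 had -0.14 and 0.18. Rps6kb1, the S6 kinase, had 0.075 and 0.0076, and Eif4ebp1, the translation repressor that mTOR complex 1 inactivates, had 0.26 (adjusted p = 0.108) and 0.049.

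Between the muscles of WT mice 43 of the 85 genes were called, 23 higher and 20 lower in the soleus, beside 57.5% of all genes, 30.2% higher and 27.3% lower. The list of receptor adaptors had 5 higher and 0 lower of 11, that of PI3-kinase and phosphatases 6 higher and 1 lower of 14, and that of mTORC1 outputs 2 higher and 6 lower of 15. The highest was Tbc1d4 with a log2 fold change of 2.42 (SE 0.16, adjusted p = 2.19e-16), and its relative Tbc1d1 was among the lowest at -1.78 (SE 0.10, adjusted p = 1.26e-17). Both encode Rab GTPase-activating proteins that Akt and AMPK phosphorylate to release GLUT4 vesicles. The adaptor Grb14, which inhibits the insulin receptor, was higher at 1.42 (SE 0.087) and the docking protein Gab2 at 1.35 (SE 0.080). Ddit4l, the muscle-enriched relative of Ddit4, was lower at -1.85 (SE 0.17), and so was Deptor, an inhibitor of mTOR, at -1.44 (SE 0.081). In ∆Ig3-MuSK mice all 6 were called in the same direction. Rptor was higher in the soleus at 0.70, and Rps6kb1 was lower at -0.27.

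**Figure D5:**
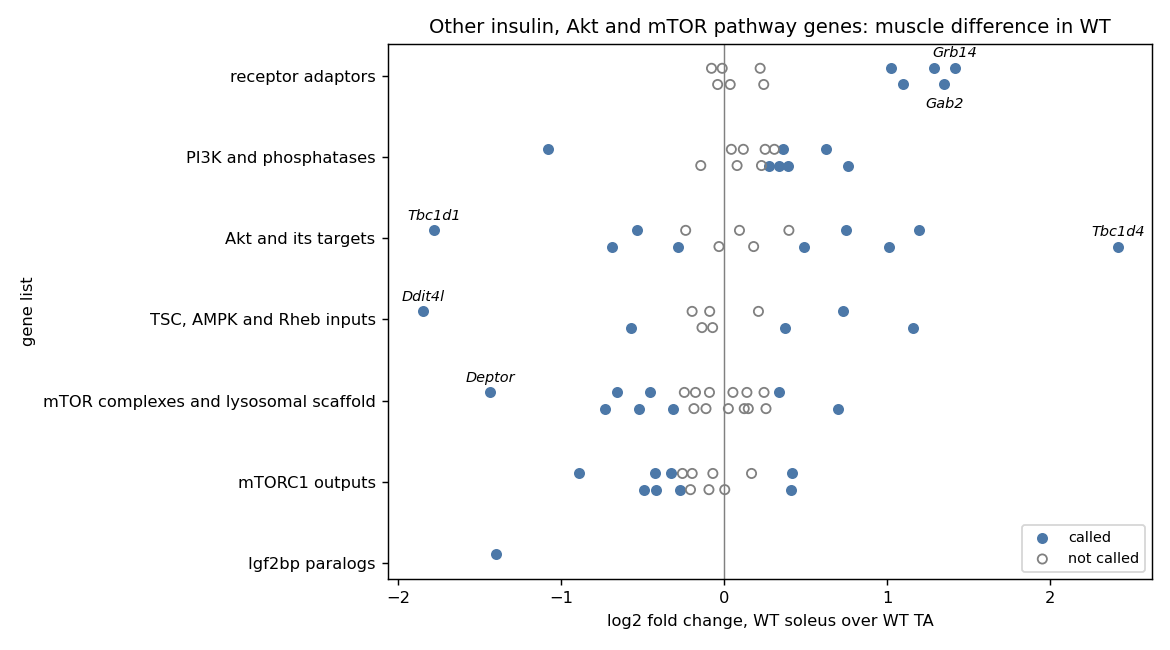
Log2 fold change of WT soleus over WT TA for 85 other pathway genes in 7 lists, with filled points for genes called at an adjusted p below 0.05 and a fold of at least 1.2. Tbc1d4 stands farthest right at 2.42 and Ddit4l farthest left at -1.85.

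Across libraries Ddit4 was correlated with 5 of 8 glucocorticoid-responsive genes in the soleus and 4 of 8 in the TA at an adjusted p below 0.05, a relation examined after its values had been seen. The share of all genes that correlate with Ddit4 was not computed. Fkbp5, Zbtb16 and Klf9 did not pass in either muscle, nor Sgk1 in the TA, and without the 2 libraries most extreme in Ddit4 the single one left was Tsc22d3 in the TA. Tsc22d3 (GILZ) had a Pearson correlation with Ddit4 of 0.82 in the soleus (Spearman 0.77, adjusted p = 0.00144 by permutation over the 8) and 0.90 in the TA (Spearman 0.91, adjusted p = 0.00024 by permutation), again with genotypes centred. Without the 2 libraries most extreme in Ddit4 it was 0.63 (adjusted p = 0.0793 by permutation) in the soleus and 0.79 (adjusted p = 0.0124 by permutation) in the TA. In the soleus it thus stayed positive and no longer passed, with fewer libraries. Cebpd and Per1 were also correlated at 0.80 and 0.73 in the soleus and at 0.73 and 0.78 in the TA, with adjusted p-values below 0.05 that were lost without the 2 libraries, whereas Fkbp5 had 0.20 and 0.38. Between genotypes 1 of the 8, Klf9, was called higher in the soleus (log2 fold change 0.30, adjusted p = 0.0405), where 0.952% of all genes were called, and 0 were called in the TA, where 0.0149% were. The summed level of the list ran from 294 to 439 CPM in the WT soleus and from 324 to 676 in the ∆Ig3-MuSK soleus. Its part in the spread of Ddit4 was not tested.

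Some genes of other lists were called between genotypes in the same soleus libraries, where 0.952% of all genes were called, against 0.0149% in the TA. Of 16 circadian clock genes 9 were called higher and 2 lower in the ∆Ig3-MuSK soleus and 1 higher in the TA, and their summed level ran from 475 to 603 CPM in the WT soleus and from 596 to 837 in the ∆Ig3-MuSK soleus. In the TA the sum was also higher in ∆Ig3-MuSK, at 814 to 1060 CPM against 638 to 871 in WT. At an unadjusted p below 0.05 by edgeR, 10 were higher and 4 lower in the soleus, beside 18.5% of all genes. In the TA 9 were higher and 3 lower, beside 24.1%. Of 15 immediate early genes 2, Egr3 and Fosl2, were called lower in the soleus, and the summed level ran from 244 to 433 CPM in WT and from 191 to 360 in ∆Ig3-MuSK. Of 4 smooth muscle and pericyte markers Acta2 was called lower, while the summed level had a median of 547.1 CPM in WT (471 to 557) and 547.6 in ∆Ig3-MuSK (458 to 578). Of 6 neuronal markers Syt1 was called higher, with summed levels of 2.51 to 4.41 and 2.19 to 5.88 CPM. No listed marker of endothelial cells, leukocytes, fibroblasts, tendon, adipocytes, Schwann cells, satellite cells or blood was called between genotypes in either muscle. In the soleus the summed level of the 4 tendon markers had a median of 249 CPM in WT (127 to 348) and 165 in ∆Ig3-MuSK (10.5 to 257). That of the 4 adipocyte markers had a median of 57.7 CPM (44.5 to 251) and 119 (17.1 to 224), and that of the 4 fibroblast markers 569 CPM (406 to 905) and 454 (213 to 613). The groups overlapped for each of these sums. No marker list had a gene at 0 in every library of a group. The part of these groups in the values of Irs1, Irs2, Rhebl1 and Igf2bp2 was not tested.

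By likeness across the 18 soleus libraries (Pearson correlation of log2 CPM over 19439 genes, genotypes centred), the nearest gene to Irs1 was Gm9747 at 0.948 and the nearest to Irs2 was 9530052E02Rik at 0.948. Both overlap the exons of their partner on the opposite strand, by 2822 and 162 bases, so reads of 1 transcript may be counted for the other. Next to Irs1 stood the heat-shock gene Hspa1b at 0.856 and Zfp568 at 0.836, and next to Irs2 Klf4 at 0.855 and Zfp974 at 0.809. Ddit4 was nearest to Tsc22d3 at 0.819, Socs5 at 0.812 and Cebpd at 0.797. Igf2bp2 was nearest to Odc1 at 0.873, Gm7993 at 0.858 and Gm45700 at 0.830. Insr was nearest to Ago2 at 0.918, Sgcd at 0.911 and Erbin at 0.905, and Mtor was close to Mfap1a at 0.867 and Kdm6a at 0.840. Akt2 was nearest to Pip4k2b at 0.925, Gps2 at 0.901 and Nudt3 at 0.885, and Akt1 to Gm12352 at 0.831, Stard10 at 0.806 and Ttc32 at 0.783. Rheb was nearest to the triad gene Trdn at 0.884, Gpbp1 at 0.877 and Gm47908 at 0.860, and Rhebl1 to Gm10605 at 0.805, Exosc10 at 0.787 and Gm29170 at 0.746. These are the highest of many correlations over libraries that share depth and composition, and they are given as a description.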

How the data were processed

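RNA-seq counts of 36 whole-muscle libraries were analysed, 9 in each of WT soleus, ∆Ig3-MuSK soleus, WT TA and ∆Ig3-MuSK TA, grouped by their labels. The authors extracted total RNA, made libraries without strand, trimmed reads with Trimmomatic, aligned them to mm10 (GRCm38) with GSNAP and used htseq-count for gene totals. The authors deposited whole-number counts without normalization, as 1 table of 51912 Ensembl IDs per muscle. The annotation release and counting mode are not given in the sources used here. Reads over exons shared by genes on both strands cannot be assigned by strand.

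Symbols were found for 51633 IDs, and positions were taken from GENCODE M21 on GRCm38. Counts were filtered with filterByExpr (minimum count 10, minimum total 15), scaled by TMM and tested with the quasi-likelihood test of edgeR 4.0.16 (R 4.3.3), with Benjamini-Hochberg adjustment over all genes. A call needs an adjusted p below 0.05 and a fold change of at least 1.2. Genotype was tested within each muscle over 18 libraries, and the muscle differences and the interaction in 1 fit of 4 group means over 36. In each genotype 8 label numbers are shared by a soleus and a TA library and may mark 1 mouse each. These libraries were treated as separate, and a fit with that number as a random block was an alternative. WT and ∆Ig3-MuSK libraries with 1 replicate number are different animals, so the numbers do not pair them. DESeq2 1.42.0, the test used by the study, and limma-voom (limma 3.58.1) were run as alternatives, with other scalings, filters and left-out libraries. Correlations used log2 CPM (prior count 2) with genotypes centred and 100000 permutations within genotype, and other steps used Python 3.11.15. Fits were tested on simulated data.

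The 10 genes, the pathway and marker lists and the tests were chosen with earlier results of these data known. Named besides the 10 are fixed pathway genes, the 3 highest and 3 lowest called pathway genes between WT muscles, the 3 nearest genes by likeness, and marker genes chosen after their values were seen. A few genes that these rules name are not reported here. The long-minus-short index was also added after seeing the data. Upstream sequences are those of RefSeq on GRCm38.p6. The study states that each muscle of a group came from a different animal, so p-values were judged against the spread between animals within groups. The labels add only the replicate and label numbers. A low count limits Rhebl1 and Igf2bp2, at 29 to 157 counts per library, while the other genes had at least 266.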

Additional observations from a re-analysis of the deposited data

Results flagged for a closer look

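Of 40 groups of 9 libraries, one for each of the 10 genes in each of the 4 groups, 5 held a library whose gap to the nearest other, as a share of the group's whole range, was above Dixon's 95% critical value for 9 values. Chance gives about 1 in 20 such groups if values are normally distributed and groups independent. Here the groups of different genes share libraries, and all 5 flagged values were the highest of their group on the linear CPM scale. The share expected by chance is therefore not known. Irs1 in WT TA replicate 9 was at 148 CPM against 79.3 in the next library (gap share 0.852). Irs2 in WT soleus replicate 6 was at 88.8 CPM against 52.5 (gap share 0.524). Akt1 in ∆Ig3-MuSK TA replicate 3 was at 77.1 CPM against 65.2 (gap share 0.647), and Rhebl1 in WT TA replicate 5 was at 2.00 CPM against 1.48 (gap share 0.576), and these are 2 of the 3 TA libraries of lowest long-minus-short index. Ddit4 in WT TA replicate 6 was at 64.4 CPM against 25.7 (gap share 0.715). Without WT TA replicate 5 Rhebl1 was called in the TA by edgeR, at a log2 fold change of 0.56 (adjusted p = 0.0150).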

How the results depend on the processing

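The number of the 10 genes called between genotypes in the soleus, 0 by edgeR, was 1 by DESeq2 with either filter (Igf2bp2), 2 by limma-voom with sample weights (Rhebl1 and Igf2bp2) and 1 in a single fit over 36 libraries (Irs2). In the TA, 0 by edgeR became 1 by DESeq2 with either filter, 1 by limma-voom and 1 without the 3 low-index libraries (Rhebl1 each time), and 2 in the single fit (Insr and Rhebl1). Between WT muscles 8 became 9 by limma-voom and without the 3 low-index libraries (Ddit4 added), and in ∆Ig3-MuSK 4 became 5 by limma-voom and with upper-quartile scaling (Akt2 added). For the interaction, 0 became 2 by DESeq2 (Insr and Irs2) and 2 by limma-voom (Insr and Mtor). Leaving out 1 library at a time gave 0 to 2 in the soleus (Rhebl1 and Igf2bp2 without WT soleus replicate 1, Igf2bp2 without WT soleus replicate 2, Irs1 without ∆Ig3-MuSK soleus replicate 6) and 0 to 1 in the TA. Correlated pairs in the soleus went from 1 to 0 by Spearman, 0 without the 2 most extreme libraries and 2 with the index regressed out, and in the TA from 9 to 3 with the index regressed out and 5 without the 3 low-index libraries. Of these 2 soleus pairs Akt2 with Igf2bp2 was new, at -0.76, and of these 5 TA pairs Rheb with Rhebl1 was new, at 0.77.

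The replicate numbers do not pair the genotypes, which are different animals. Libraries of 1 number correlated above 0.1 in 3 of 9 cases in the soleus and 2 of 9 in the TA. The own number was the best match in 1 of 9 cases in each muscle. With the replicate block 1 of the 10 genes was called in the soleus (Irs1) and 0 in the TA and for the interaction. Soleus and TA libraries of 1 label number correlated at 0.026 to 0.12 in WT and 0.032 to 0.28 in ∆Ig3-MuSK, and the block on that number called 0 for the interaction. Pairs of unlike label numbers had medians of -0.0059 and -0.024. The best match was the library's own number in 4 of 8 cases in WT and 5 of 8 in ∆Ig3-MuSK.

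The interaction of Akt1, near 0, turned sign with limma-voom (-0.023), the stricter filter (-0.0025), the replicate block (-0.00086), the label block (-0.0037) and the index (-0.040), and Rheb in the TA turned to 0.042 with the index. Of the values of single genes under all settings, 849 kept their direction and side of the threshold, 25 became calls and these 6 turned sign. The causes were not tested. Over all genes edgeR called 185 in the soleus, and 22 (without WT soleus replicate 5) to 602 (without WT soleus replicate 1) with 1 library left out, DESeq2 486 and limma-voom 653. In the TA edgeR called 3, DESeq2 225, limma-voom 150 and the single fit 692, and for the interaction edgeR 0, DESeq2 797 and limma-voom 959.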
